A study of Homo sapiens with 9 samples.

Results

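The spliceosome, the machine that cuts introns out of pre-mRNA, and the proteins that coat nascent transcripts were followed at their promoters. The genes were the protein-coding genes of the GENCODE annotation on hg19 whose symbols start with SNRP, SF3A, SF3B, PRPF, SRSF, U2AF or HNRNP. The rule used names and no measured value, and it took 74 of 20163 protein-coding genes: 12 SNRP, 9 SF3A and SF3B, 3 U2AF, 13 PRPF, 12 SRSF and 25 HNRNP genes. HNRNPUL2 and the readthrough gene HNRNPUL2-BSCL2 start close together, share nearly all of their peaks and are therefore not independent.

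H3K4me3 is a histone mark of active promoters. Its positions were read by CUT&RUN, in which an antibody guides a nuclease to the mark and the freed fragments are sequenced. All libraries came from HEL, a human erythroleukemia line. The control group (NTC), labelled as a CRISPR non-targeting control, was sampled 3 times. The knockout groups METTL3-KO, METTL14-KO and WTAP-KO, each labelled as a CRISPR knockout of the gene named, had 2 libraries each. METTL3, METTL14 and WTAP are subunits of the complex that writes N6-methyladenosine (m6A) on mRNA, and the question was whether promoter H3K4me3 depends on that complex. The labels do not say whether a knockout was a clone or a pool of cells, and H3K4me3 at a promoter does not show whether a guide cut its target.

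A gene counted as marked in a library where any of its annotated starts had a peak no more than 1 kb away, and its signal was the largest value among those peaks. The signal is the authors' coverage of a peak, scaled to a yeast spike-in, and 0 below means that no peak was listed. Lists held 21724 to 21941 peaks in NTC, 9205 and 9369 in METTL3-KO, 3169 and 5286 in METTL14-KO, and 3160 and 3673 in WTAP-KO. Sequencing depth is unknown. Values within a list were multiples of a step, read as the worth of 1 fragment. Counted in pairs of steps, the lowest value came to 12 to 14 in NTC and 15 to 47 in KO lists. Peaks in the lists were at most 2000 bp wide. Of 10 erythroid and megakaryocytic marker genes 6 were marked in all 3 NTC libraries (GATA1, TAL1, KLF1, GYPC, EPOR and LMO2), while HBG1 was marked in none. Of 8 markers of other blood cells CD8A and PAX5 were marked in all 3, as was COL1A1 of 4 epithelial and fibroblast markers. In such bulk libraries fewer cells with the mark and less mark per cell cannot be told apart.

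Splicing is carried out in steps by particles named after their small nuclear RNAs. The U1 particle finds the 5′ splice site, U2AF and the U2 particle with SF3A and SF3B settle on the 3′ splice site and the branch point, and the U4/U6.U5 tri-snRNP joins to form the catalytic centre. SR proteins (SRSF) mostly favour the use of nearby exons, and many hnRNPs oppose it. In leukemia this machinery is known for recurrent mutations of SF3B1, U2AF1 and SRSF2, and in RNA methylation for hnRNPs whose binding responds to m6A.

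Promoter sequences are shown for 4 genes that stand for the main patterns below: U2AF1L4 with a peak in every library, HNRNPA3 and PRPF4B with a peak in every NTC library and no KO library, and PRPF38A with a peak in every KO library and no NTC library. At each of them every peak was centred within 1 kb of the start shown. Each runs from 250 bases before to 50 bases after the start of the canonical transcript, 5′ to 3′ on the gene's strand, read from the hg19 genome. Capitals mark matches, on either strand, to GGGCGG (the GC box), CCGGAAG (a site of the ETS family), CCAAT (the box of NF-Y), CACGTG (an E-box), GCGCATGC (a site of NRF1), ATGGCGGC (a site of YY1) and TATAAA (the TATA box). A match is a description of the letters and not a bound site. U2AF1L4 lies at chr19:36236270-36236569 (minus strand), HNRNPA3 at chr2:178077272-178077571 (plus), PRPF4B at chr6:4021284-4021583 (plus) and PRPF38A at chr1:52870024-52870323 (plus).
U2AF1L4: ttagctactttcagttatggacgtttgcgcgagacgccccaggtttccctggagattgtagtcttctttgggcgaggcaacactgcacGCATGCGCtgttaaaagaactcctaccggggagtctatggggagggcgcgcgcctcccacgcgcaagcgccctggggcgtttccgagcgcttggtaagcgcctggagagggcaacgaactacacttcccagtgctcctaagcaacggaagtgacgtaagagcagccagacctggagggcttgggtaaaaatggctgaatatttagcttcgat
HNRNPA3: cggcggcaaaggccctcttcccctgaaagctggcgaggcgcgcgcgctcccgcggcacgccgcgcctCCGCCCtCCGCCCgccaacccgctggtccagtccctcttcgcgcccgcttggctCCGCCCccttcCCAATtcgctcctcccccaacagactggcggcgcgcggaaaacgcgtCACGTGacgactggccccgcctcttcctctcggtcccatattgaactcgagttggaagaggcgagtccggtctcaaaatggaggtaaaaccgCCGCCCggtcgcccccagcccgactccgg
PRPF4B: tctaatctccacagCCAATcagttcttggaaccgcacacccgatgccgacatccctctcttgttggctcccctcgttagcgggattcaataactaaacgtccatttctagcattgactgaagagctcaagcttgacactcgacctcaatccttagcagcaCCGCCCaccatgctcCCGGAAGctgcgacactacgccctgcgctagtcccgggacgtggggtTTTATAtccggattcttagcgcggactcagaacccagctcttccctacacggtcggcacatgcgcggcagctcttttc
PRPF38A: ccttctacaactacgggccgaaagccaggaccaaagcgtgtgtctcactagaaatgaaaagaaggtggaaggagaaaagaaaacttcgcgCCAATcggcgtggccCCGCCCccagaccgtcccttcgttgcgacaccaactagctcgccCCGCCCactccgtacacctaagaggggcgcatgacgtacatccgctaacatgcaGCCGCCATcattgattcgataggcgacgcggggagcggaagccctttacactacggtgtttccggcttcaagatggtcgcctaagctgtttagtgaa

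The promoter of U2AF1L4, marked in all 9 libraries, held 1 of the 7 motifs, GCGCATGC at -162 from the start. GGGCGG was found 4 times at HNRNPA3, and CCAAT in 3 of the 4 promoters. Over all 74 genes CCAAT was present in 52.7% of promoters against 35.9% of the promoters of all protein-coding genes, CCGGAAG in 29.7% against 14.0%, GCGCATGC in 10.8% against 4.26% and ATGGCGGC in 8.11% against 4.54%. GGGCGG (58.1% against 60.9%), CACGTG (10.8% against 8.74%) and TATAAA (12.2% against 9.80%) were closer. The median GC content was 62.0% in the splicing genes and 63.3% in all genes, and the median ratio of observed to expected CpG was 0.958 against 0.773. Of the 65 splicing genes with a promoter in the RefSeq table (GRCh38.p14) 60 had the identical sequence, among them U2AF1L4, HNRNPA3 and PRPF38A. A second protein-coding gene started within 1 kb on the opposite strand at 23 of the 74 genes (31.1%), against 13.8% of all genes, so that a peak there belongs to both starts. Such partners were CBX3 at HNRNPA2B1, MFSD11 at SRSF2, TFPT at PRPF31 and ORC1 at PRPF38A.

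The 74 genes fell into 4 patterns. A peak was found in all 3 NTC libraries at 37 of 74 genes (against 42.1% of all protein-coding genes), in 1 or 2 NTC libraries at 19 (25.7% against 10.3%), and in KO libraries but no NTC library at 14 (18.9% against 9.47%). The other 4, HNRNPA1L2, HNRNPA1L3, HNRNPCL1 and HNRNPCL2, had no peak anywhere. NTC libraries marked 51, 49 and 43 of the 74, METTL3-KO libraries 53 and 55, METTL14-KO libraries 35 and 29, and WTAP-KO libraries 20 and 23. METTL3-KO libraries thus marked more of these genes than any NTC library, while over all protein-coding genes they marked 33.5% and 34.6% against 46.8% to 47.9% in NTC. METTL14-KO and WTAP-KO libraries were below every NTC library. These counts rest on listed peaks, and the lists held no peak wider than 2000 bp. A gene without a listed NTC peak is therefore not shown to lack the mark. The part of that limit in the missing NTC peaks was not tested.

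**Figure D1:**
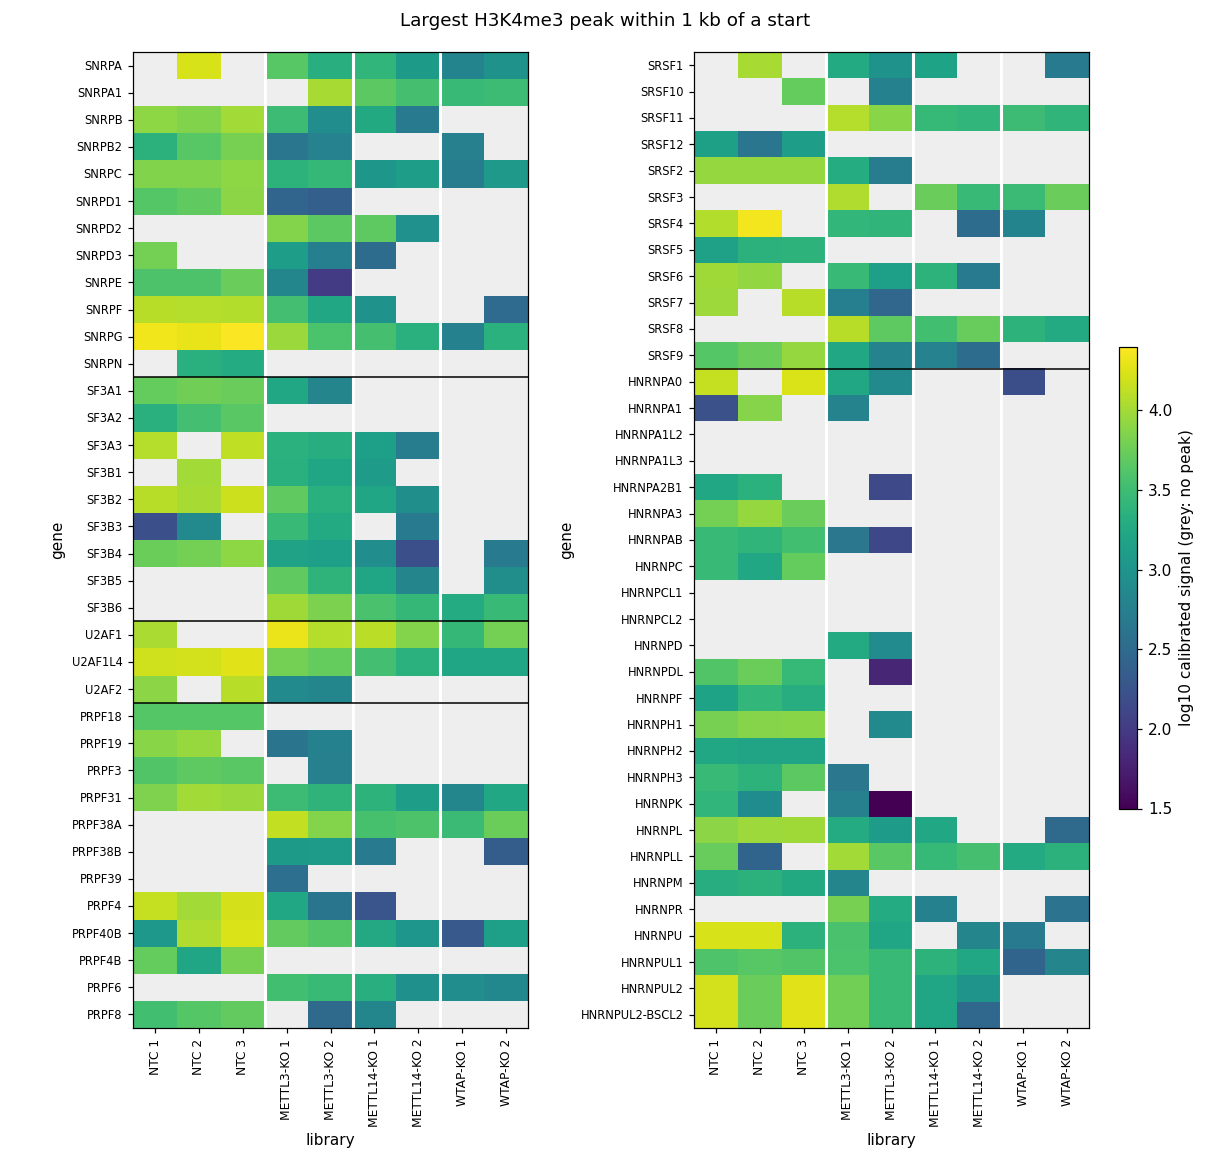
Log10 calibrated signal of the largest peak within 1 kb of a start for 73 of the 74 genes (y axis, grouped by family) in the 9 libraries (x axis), with grey where no peak was listed. NTC libraries hold 43 to 51 filled cells and WTAP-KO libraries 20 and 23, and 13 genes are grey in all 3 NTC libraries but filled in KO libraries.

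Signal was compared by limma as log2(signal + 30.1), with the smallest promoter signal added as pseudocount, over the 12037 genes marked in at least 2 libraries, 69 of them splicing genes. HNRNPA1L2, HNRNPA1L3, HNRNPCL1, HNRNPCL2 and PRPF39 did not pass that filter, and genes with few peaks passed through the groups where they were marked. For the mean of the KO groups 37 splicing genes were lower and 14 higher, beside 73.0% lower and 14.3% higher over all genes tested. Counts lower and higher were 28 and 11 in METTL3-KO (all genes: 60.9% and 14.0%), 35 and 9 in METTL14-KO (68.8% and 8.38%), and 36 and 7 in WTAP-KO (69.7% and 6.81%). As shares of the 69 the lower calls came to 53.6%, 40.6%, 50.7% and 52.2%, each below the share over all genes. The median log2 change for all KO groups was -3.97 in the splicing genes and -5.30 in all genes tested, where a missing peak stands at the pseudocount. Centring each library on the 665 genes marked in all 9 moved the median of all genes to -3.45. Centring sets the median of those 665 genes equal between libraries, so any change they share is taken out. The 6 splicing genes marked in all 9 libraries are among them. Lower and higher calls among the splicing genes were then 27 and 15 for all KO groups (all genes: 63.5% and 14.9%), 15 and 14 in METTL3-KO (48.5% and 14.9%), 21 and 12 in METTL14-KO (56.2% and 9.99%), and 26 and 9 in WTAP-KO (61.8% and 8.92%). With values divided by the step they were 29 and 15 for all KO groups (68.4% and 13.2%), 17 and 11 in METTL3-KO (48.7% and 14.0%), 21 and 10 in METTL14-KO (60.7% and 8.63%), and 29 and 7 in WTAP-KO (65.3% and 7.27%).

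The patterns and the calls use the same NTC values, so their match is a description. Of the 37 genes with 3 NTC peaks 36 were called lower for all KO groups, PRPF40B being the exception. In a fit of genes with 3 NTC peaks alone, 98.6% of all genes and 97.3% of the splicing genes were lower. Of the 19 marked in part of the NTC libraries SNRPN was lower and U2AF1 higher. The 13 tested genes without an NTC peak passed the filter through KO libraries, which fixed their higher calls. The patterns are given one after the other, by the role of the gene products.

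A peak near a start in KO did not always lie on the NTC peak. Of the 37 genes 28 had a peak in some KO library, and at 26 of them a KO peak shared at least 1 bp with an NTC peak. The exceptions were HNRNPUL1 and HNRNPH3. The largest peaks of the 3 NTC libraries shared bases at 31 of the 37 genes (87.1% of genes with 3 NTC peaks), and not at HNRNPF, HNRNPU, HNRNPUL2, HNRNPUL2-BSCL2, PRPF40B and SRSF9.

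**Figure D2:**
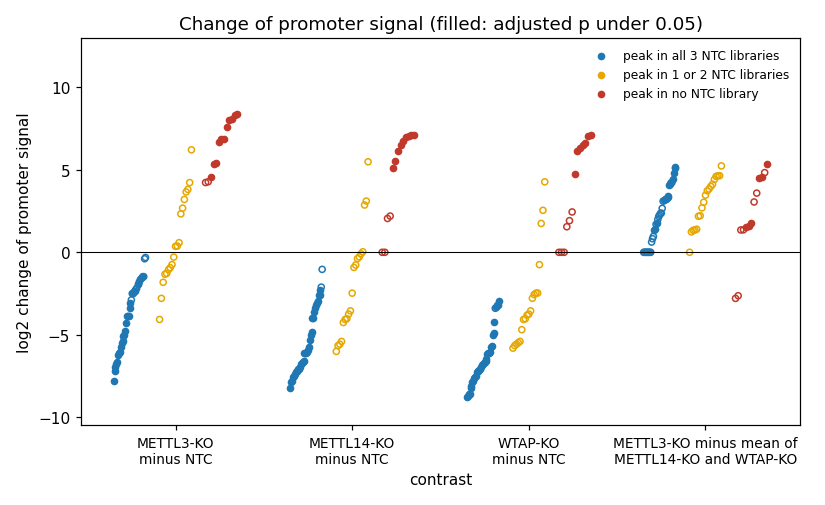
Log2 change of promoter signal (y axis, log2(signal + 30.1) scale) of the tested splicing genes in 4 contrasts (x axis), coloured by pattern in NTC, with filled points at an adjusted p under 0.05 (limma). Genes marked in all 3 NTC libraries lie at or below 0 against NTC and genes without an NTC peak at or above 0, and changes of genes with no peak in a group are set by the pseudocount.

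The Sm proteins form the ring around the small nuclear RNAs. SNRPG, an Sm ring subunit, had the highest mean NTC signal of the 37 genes and kept a peak in every library. Its signal was 22047, 19914 and 24209 in NTC, 9083 and 3804 in METTL3-KO, 3512 and 2206 in METTL14-KO and 595 and 2238 in WTAP-KO, and all 6 KO values lay below the NTC values. The log2 change for all KO groups was -3.02 (SE 0.48, adjusted p 0.0011), and -0.18 (adjusted p 0.60, limma) on centred values. SNRPG is itself among the genes that set the centring, as are SNRPC, U2AF1L4, PRPF31, PRPF40B and HNRNPUL1 below. SNRPC, a U1 particle protein that helps to hold the 5′ splice site, read 7107, 7058 and 8065 in NTC, 2378 and 2733 in METTL3-KO, 1089 and 1305 in METTL14-KO and 520.2 and 1183 in WTAP-KO. It was lower in every KO library than in any NTC library, with a log2 change of -2.44 (SE 0.30, adjusted p 0.00028) that turned to 0.39 (adjusted p 0.32, limma) on centred values. SNRPB, which with its copy SNRPN supplies another Sm subunit, had 8011, 7012 and 9826 in NTC, 3054 and 846 in METTL3-KO and 1824 and 497 in METTL14-KO and no peak in WTAP-KO. Its log2 change for all KO groups was -4.49 (SE 0.57, adjusted p 0.00032). With values divided by the step the calls of SNRPG (-1.65) and SNRPC (-1.07) were lost, as were those of PRPF31 (-0.91), HNRNPUL1 and HNRNPU described further on.

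SNRPD1, also of the Sm ring, had 4356, 4875 and 7958 in NTC and 283 and 239 in METTL3-KO, 4.55% of the NTC mean, and no peak in the other KO groups. SNRPE and SNRPF followed the same order, with means of 8.84% and 21.8% of NTC in METTL3-KO, and only SNRPF was found in METTL14-KO (968 and 0) and WTAP-KO (0 and 329.9). SNRPB2, a U2 particle protein, had 2324, 4408 and 6427 in NTC, 437 and 617 in METTL3-KO and a single peak of 586 in WTAP-KO. All 7 SNRP genes marked in every NTC library kept a peak in METTL3-KO, and 4 of them did in each of METTL14-KO and WTAP-KO.

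SF3A and SF3B are the U2 particle subcomplexes at the branch point. SF3B2, a subunit of SF3B, had 12414, 10466 and 15025 in NTC, 4933 and 2177 in METTL3-KO and 1607 and 889 in METTL14-KO and no peak in WTAP-KO. SF3A1, which bridges the U2 particle to the rest of the assembly, had 5245, 5979 and 5422 in NTC and 1737 and 652 in METTL3-KO and no peak in METTL14-KO or WTAP-KO. SF3B2 fell at -4.66 (SE 0.37, adjusted p 2.9e-05), and SF3A1 was called lower as well (adjusted p 3.9e-06, limma). SF3A2 was among the genes without any KO peak, with 2178, 3459 and 4524 in NTC. SF3B4 kept peaks in both METTL3-KO (1478 and 1363) and both METTL14-KO libraries (844 and 162) and in WTAP-KO replicate 2 (507). Its log2 change was -3.96 (SE 0.98, adjusted p 0.0081).

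U2AF1L4, a relative of the U2AF1 subunit that reads the end of the intron, was marked everywhere. It had 15667, 15817 and 18701 in NTC, 6263 and 5139 in METTL3-KO, 3378 and 2231 in METTL14-KO and 1625 and 1661 in WTAP-KO. The groups did not overlap and ranked in that order, with a log2 change of -2.49 (SE 0.18, adjusted p 1.6e-05) for all KO groups that became 0.36 (adjusted p 0.070, limma) on centred values. PSENEN starts at the same promoter on the other strand.

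PRPF proteins build and drive the tri-snRNP. PRPF31, which holds the U4/U6 and U5 parts together, had 6953, 9979 and 9249 in NTC, 3105 and 2415 in METTL3-KO, 2361 and 1329 in METTL14-KO and 681 and 1735 in WTAP-KO. All KO values were below the NTC values. The log2 change was -2.29 (SE 0.37, adjusted p 0.0011), or 0.55 (adjusted p 0.069, limma) on centred values. PRPF40B, a protein linked to the U1 particle, had 1108, 11249 and 17080.4 in NTC and 5017 and 4157 in METTL3-KO. The largest peak in NTC replicate 1 lay near the canonical start, while the largest peak of every other library lay at another annotated start far upstream, where NTC replicate 1 had no peak. With 1773 and 1052 in METTL14-KO and 203 and 1386 in WTAP-KO its log2 change was -1.97 (SE 1.02, adjusted p 0.11), the 1 gene of the 37 not called, and it compares different starts in 1 library. It became -3.17 and passed without NTC replicate 1, and it was 0.83 on centred values.

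PRPF8, the scaffold around the catalytic centre, had 3349.6, 4294 and 5027 in NTC and only 2 KO peaks, 315 in METTL3-KO replicate 2 and 681 in METTL14-KO replicate 1. Its log2 change was -5.78 (SE 1.17, adjusted p 0.0033). PRPF4 of the tri-snRNP went from 13922, 9890.4 and 16173 in NTC to 1669.7 and 427 in METTL3-KO, and PRPF3, its partner, kept 579 in METTL3-KO replicate 2. PRPF18, which acts in the second step of splicing, had 4360.4, 4337 and 4346 in NTC and no KO peak. PRPF4B, a kinase of tri-snRNP proteins, likewise had 5230.3, 1608 and 6347 and then none.

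Among the SR proteins SRSF2, the exon-binding factor mutated in myeloid disease, had 8831, 8749 and 8847 in NTC, 1986 and 525 in METTL3-KO and no peak in METTL14-KO or WTAP-KO. It was called lower in each KO group (adjusted p for all KO groups 8.3e-06, limma), but with the gene record start alone its change of -1.21 (adjusted p 0.57, limma) did not pass. The NTC peaks of SRSF2 were centred 1633.5 to 1774.5 bp after the canonical start, within the gene. Both METTL3-KO libraries also had a peak centred before that start, where no NTC peak was listed (906 in replicate 1 and 525 in replicate 2). In METTL3-KO replicate 2 that peak was the larger, and the one on the NTC peak had 374. SRSF9 had 4275, 5528 and 8715 in NTC, 1753 and 630.1 in METTL3-KO and 609 and 337 in METTL14-KO. The largest SRSF9 peak of NTC replicate 1 lay near the canonical start and those of the other libraries at a start far upstream. SRSF5, with 1433, 2332 and 2382, and SRSF12, with 1403, 439.7 and 1307, had no KO peak. Of the 4 SRSF genes marked in every NTC library 2 kept a peak in METTL3-KO, 1 in METTL14-KO and none in WTAP-KO.

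Among the hnRNPs HNRNPUL1, a relative of the nuclear scaffold protein HNRNPU, had the highest KO signal relative to NTC of the 37 genes in METTL3-KO and METTL14-KO, but at other positions. Its NTC peaks were centred 986 to 1086 bp after the canonical start and its KO peaks before it, with at least 632 bp between them, so no NTC peak was kept. It read 4023, 4431 and 4069 in NTC, 3834 and 2927 in METTL3-KO, 2401 and 1698 in METTL14-KO and 270.3 and 666 in WTAP-KO, or 81.0%, 49.1% and 11.2% of the NTC mean. The fit thus compared different peaks. Only the WTAP-KO difference passed (-3.20 (SE 0.43, adjusted p 0.00048)), and for all KO groups the log2 change of -1.52 (SE 0.34, adjusted p 0.005) turned to 1.29 (adjusted p 0.0024, limma) on centred values and to 4.30 when only the start of the gene record was used. HNRNPU itself had 16959.7, 16606 and 2328 in NTC, 3729.6 and 1653 in METTL3-KO, 666 in METTL14-KO replicate 2 and 479 in WTAP-KO replicate 1. It was called lower at -4.62 (SE 1.43, adjusted p 0.021), and not without NTC replicate 1 (-4.14), NTC replicate 2 (-4.15) or METTL3-KO replicate 2 (-4.42), nor on centred values (-2.18) or values divided by the step (-3.82). NTC replicate 3 had no peak at the canonical start of HNRNPU, and its value came from a peak within the gene.

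HNRNPC, which binds uridine tracts of nascent RNA, had 2869, 1684 and 5202 in NTC and no KO peak. HNRNPA3, with 6286, 8798 and 5452, had the highest NTC mean of the 9 genes that had all 3 NTC peaks and no KO peak. The others were HNRNPF, HNRNPH2, PRPF18, PRPF4B, SF3A2, SRSF5 and SRSF12, and HNRNPC as given. HNRNPL, a regulator of alternative exons, had 7901, 9324 and 9813 in NTC, 1936 and 1256 in METTL3-KO, 1698 in METTL14-KO replicate 1 and 315 in WTAP-KO replicate 2. The largest METTL3-KO and METTL14-KO peaks of HNRNPL lay beside the NTC peak, and the peaks on it had 1805 and 1217 in METTL3-KO and 754 in METTL14-KO replicate 1. HNRNPUL2 had 15875, 5481 and 18715 in NTC, the value of replicate 2 coming from a peak downstream of the others, 6043 and 2930.4 in METTL3-KO and 1623 and 1011 in METTL14-KO and no peak in WTAP-KO.

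The 37 genes were then set beside genes of equal NTC signal. Their median NTC signal was 5730, at the 54.2 percentile of the 8495 protein-coding genes marked in all 3 NTC libraries, whose median was 5148. A peak in at least 1 library was kept by 28 in METTL3-KO (75.7%, against 53.7% of the 8495), 17 in METTL14-KO (45.9% against 26.7%) and 11 in WTAP-KO (29.7% against 15.1%). Other genes of the same deciles of NTC signal kept their peaks at rates that would give 22.9, 11.3 and 6.52 of 37. The count was above that rate in each of the 6 KO libraries, by 24 and 26 against 20.4 and 19.5 in METTL3-KO, 16 and 13 against 10.9 and 5.92 in METTL14-KO, and 8 and 9 against 5.04 and 5.55 in WTAP-KO. Peaks in all 9 libraries were found at 16.2% of the 37 and 7.83% of the 8495, and peaks in no KO library at 24.3% and 45.8%. These shares are descriptions and were not tested. When peaks weaker than the NTC median were dropped, the shares kept per library were 32.8% in METTL3-KO, 10.3% in METTL14-KO and 1.72% in WTAP-KO. They are shares of the splicing genes that still had all 3 NTC peaks, and not of the 37. No share of other genes was computed in that setting, so it does not show whether the splicing genes stayed above them.

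**Figure D3:**
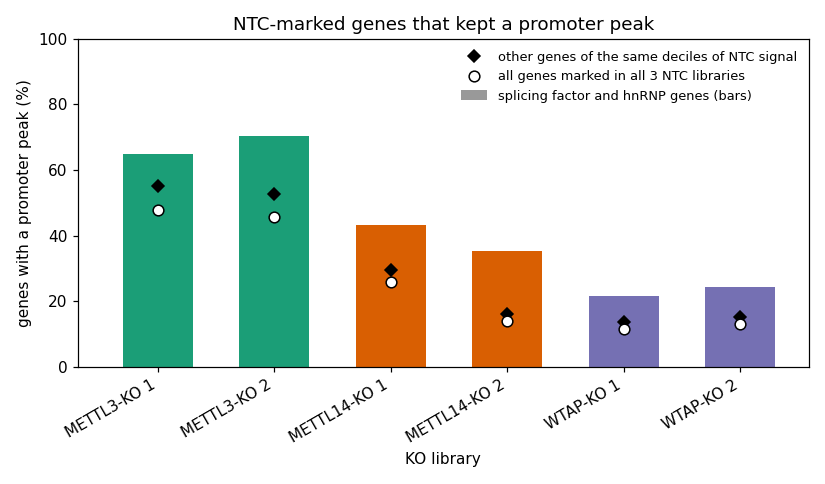
Share of genes marked in all 3 NTC libraries that kept a promoter peak (y axis, percent, from 0) in each KO library (x axis), as bars for the 37 splicing genes, circles for all 8495 genes and diamonds for other genes of the same NTC deciles. Every bar lies above its diamond, from 21.6% against 13.6% in WTAP-KO replicate 1 to 70.3% against 52.6% in METTL3-KO replicate 2.

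Where a KO peak had to share at least 1 bp with an NTC peak of the gene, 26, 16 and 10 of the 37 kept one, against 22.0, 10.3 and 5.65 at the rates of other genes in the same deciles. The count stayed above that rate in each KO library. Peaks of that kind in all 6 KO libraries were then found at 13.5% of the 37 and 6.32% of the 8495, and in none at 29.7% and 48.7%.

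In the highest 3 deciles of NTC signal all 13 splicing genes kept a METTL3-KO peak, where 83.8% to 97.6% of genes did, and 12 of 13 kept a METTL14-KO peak, where 40.0% to 79.9% did. In WTAP-KO 7 of the 13 kept a peak, where 20.6% to 68.0% of genes did, and in decile 10 the count was 2 of 5 against 68.0%. In decile 5, which held 8 splicing genes, 6 kept a METTL3-KO peak against 51.2% of genes. In the lowest 2 deciles neither of the 2 splicing genes, SRSF12 and HNRNPH2, kept a peak. The median METTL3-KO signal was 12.0% of NTC over the 37 genes, 9 of them at 0, against 1.92% over the 8495 and 5.95% when their deciles were weighted as those of the splicing genes. On centred values the median of the splicing genes was 42.3%, and that of other genes was not computed. The median in METTL14-KO and in WTAP-KO was 0 for both sets, with 20 and 26 of the 37 genes at 0. Over the genes with a KO peak on an NTC peak alone the medians were 20.3% in METTL3-KO (26 genes), 8.96% in METTL14-KO (16) and 6.55% in WTAP-KO (10), against 11.02%, 5.48% and 4.04% at other genes. The highest in WTAP-KO was PRPF31 at 13.8%.

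**Figure D4:**
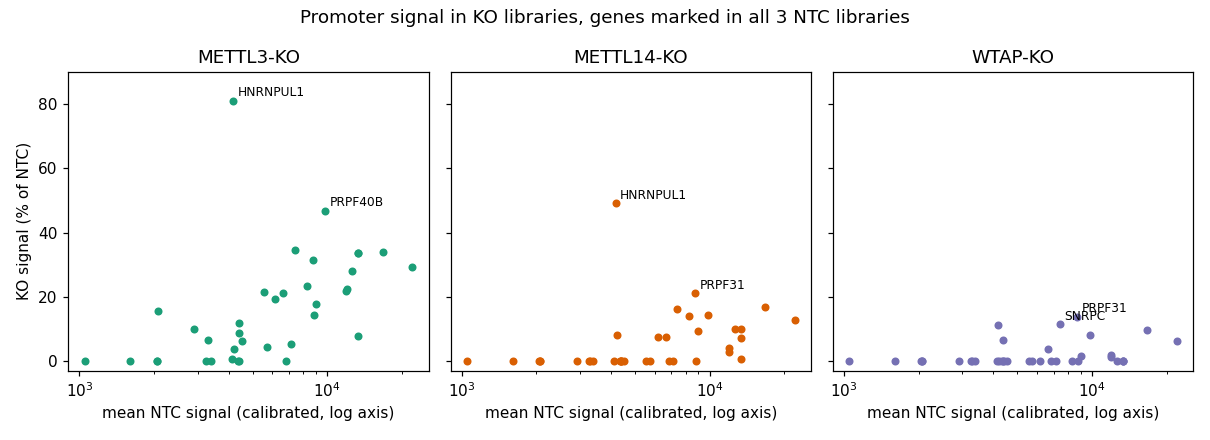
Mean KO signal as a percent of the mean NTC signal (y axis) against the mean NTC signal (x axis, log scale) of the 37 splicing genes with a peak in every NTC library, with 1 panel per KO group and the highest genes named. HNRNPUL1, whose KO peaks lie beside its NTC peaks, stands at 81.0% in METTL3-KO and 49.1% in METTL14-KO, while no gene exceeds 13.8% in WTAP-KO.

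A second pattern was a peak in 1 or 2 NTC libraries, seen at 19 genes that included core factors. SF3B1, the branch point subunit most often mutated in myelodysplasia, had 0, 9862 and 0 in NTC, 2208 and 1608 in METTL3-KO and 1233 and 0 in METTL14-KO and no peak in WTAP-KO. The NTC libraries spanned the KO values, and the log2 change of 0.11 (SE 2.23, adjusted p 0.97) became -1.29 without NTC replicate 1 or 3 and -0.79 without METTL14-KO replicate 1. U2AF1, which reads the AG at the 3′ splice site, had 10666, 0 and 0 in NTC, 20801 and 11961 in METTL3-KO, 12421 and 7315 in METTL14-KO and 2701 and 6172 in WTAP-KO. Its largest NTC peak and the largest KO peaks shared no base, though a smaller KO peak shared bases with that NTC peak in all 6 KO libraries. U2AF1 was called higher at 5.32 (SE 2.00, adjusted p 0.042). That call was lost without NTC replicate 2 or 3 (3.91 in both), without any single KO library (5.13 to 5.52) and with missing peaks left out of the fit (-0.33).

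U2AF2, its partner on the polypyrimidine tract, had 7782, 0 and 12368 in NTC and 753 and 683 in METTL3-KO and no other KO peak. PRPF19, a ubiquitin ligase needed for spliceosome activation, had 7609.9, 8929 and 0 in NTC and 408 and 599 in METTL3-KO. SRSF7, an SR protein that also serves RNA export, had 9524, 0 and 12173 in NTC and 559 and 285 in METTL3-KO. In each of these 3 genes the NTC libraries with a peak lay above every METTL3-KO value while 1 NTC library read 0, and the change for all KO groups did not pass (adjusted p 0.093, 0.085 and 0.077, limma). Without that NTC library all 3 passed, at log2 changes of -6.81, -6.73 and -7.21. HNRNPA2B1, an hnRNP with a reported link to m6A, had 1689, 2259 and 0 in NTC and 1 KO peak, 137 in METTL3-KO replicate 2. HNRNPK, which binds cytidine-rich RNA, had 2548, 822 and 0 in NTC and 579.9 and 32.0 in METTL3-KO and none elsewhere. At U2AF2, HNRNPA2B1 and HNRNPK the largest METTL3-KO and NTC peaks shared no base. At U2AF2 alone of these, both METTL3-KO libraries still had a peak that shared bases with some NTC peak. The log2 changes of HNRNPA2B1 and HNRNPK, -3.62 (adjusted p 0.058) and -2.85 (adjusted p 0.12), did not pass, and passed at -5.63 and -4.72 without NTC replicate 3.

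SRSF1, the founding SR protein, had 0, 10510.2 and 0 in NTC, 1859 and 945 in METTL3-KO, 1530.3 in METTL14-KO replicate 1 and 499.6 in WTAP-KO replicate 2. SNRPD3 of the Sm ring had 6165, 0 and 0 in NTC, 1327 and 557 in METTL3-KO and 331 in METTL14-KO replicate 1. For both, the single NTC peak lay above all KO values and the other NTC libraries at 0, with changes of 0.65 (SE 2.43, adjusted p 0.81) and -0.33 (SE 1.94, adjusted p 0.88). Without NTC replicate 1 these became -0.76 at SRSF1, as without NTC replicate 3, and 2.23 at SNRPD3. They also changed sign without METTL14-KO replicate 1 (-0.30) or WTAP-KO replicate 2 (-0.04) at SRSF1 and without METTL14-KO replicate 2 (0.26) at SNRPD3. HNRNPA1, a silencer of exons, had 166, 7420.4 and 0 in NTC and 624 in METTL3-KO replicate 1 alone, at -2.81 (SE 1.86, adjusted p 0.2). SNRPN, the imprinted copy of SNRPB, had 0, 2183 and 1923 in NTC and no KO peak, and passed the filter through those NTC peaks alone, so its call is no support. The NTC peaks of the 19 genes had a median width of 1423.5 bp, against 1171 bp at the 37 genes. The part of the 2000 bp limit in the missing NTC peaks was not tested.

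Another pattern was a peak in KO libraries and in none of the NTC libraries, seen at 14 genes, among them SNRPA1, SNRPD2, SF3B5, SF3B6, PRPF6, PRPF38A, PRPF38B, PRPF39, SRSF3, SRSF8, SRSF11, HNRNPD and HNRNPR. SF3B6, the SF3B subunit next to the branch point adenosine, had 9738 and 6773 in METTL3-KO, 3676 and 2695 in METTL14-KO and 1912 and 2856 in WTAP-KO. PRPF38A, which enters with the precatalytic spliceosome, had 13702 and 7317, 3602 and 3884 and 2995 and 5547 in the same order. Both genes read 0 in all 3 NTC libraries and were highest in METTL3-KO replicate 1. PRPF6, a tri-snRNP bridge, had 3308 and 2811 in METTL3-KO, 2065 and 907 in METTL14-KO and 825 and 720.0 in WTAP-KO, and with a 3 kb window, where NTC peaks were found, its change was -0.63.

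SRSF11, an SR-related protein, had 11881 and 7648 in METTL3-KO, 2777 and 2549 in METTL14-KO and 3069 and 2478 in WTAP-KO. SRSF8, a relative of SRSF2, had 12268 and 4847, 3338 and 5277 and 2349 and 1895 in that order. With SF3B6, PRPF38A and PRPF6 these were the 5 genes found in every KO library and never in NTC. SRSF3, an SR protein that also guides RNA export and 3′ end processing, had 11279 in replicate 1 of METTL3-KO and 0 in the other, then 5464 and 2907 in METTL14-KO and 2983 and 5464 in WTAP-KO. Its largest METTL14-KO peaks and the largest peaks of the other groups shared no base. SNRPA1 of the U2 particle did the reverse, with 0 in replicate 1 of METTL3-KO and 10552 in the other, and had 4662 and 3544 in METTL14-KO and 2878 and 3048 in WTAP-KO.

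SNRPD2 of the Sm ring had 7209 and 4696 in METTL3-KO and 4834 and 919.5 in METTL14-KO and none in WTAP-KO. SF3B5, a small SF3B subunit, had 4868 and 2409 in METTL3-KO, 1594 and 663 in METTL14-KO and 863 in WTAP-KO replicate 2. The weaker members were largely METTL3-KO peaks. HNRNPD, a binder of AU-rich RNA, had 1863 and 785 there and none elsewhere. PRPF39, a protein of the U1 particle, had 1 peak in all, 364 in METTL3-KO replicate 1. HNRNPR had 6429 and 1935 in METTL3-KO, 602 in METTL14-KO replicate 1 and 399.7 in WTAP-KO replicate 2, and PRPF38B had 1215 and 1246, 487 and 228 in the same libraries.

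These genes were grouped by their lack of NTC peaks and passed the filter through KO libraries, so their higher calls and p-values support nothing and are not given, and no fold is given against a group listed at 0. The count of 14 higher genes over all patterns fell to 9 without METTL3-KO replicate 1. No NTC peak lay within the span of the KO peaks at any of the 14, and the NTC peak nearest to the canonical start was 1918 to 541112 bp from it (median 30159 bp). The KO peaks were wide. The widest METTL3-KO peak had a median width of 1502 bp at the 14 genes, against 664.5 bp at the 28 genes that kept a METTL3-KO peak of the 37 and 1018 bp at other genes with KO peaks only. At 7 of the 14 a KO peak exceeded 1500 bp, with the widest at PRPF38A (1820 bp). The lists end at 2000 bp, and whether wider NTC peaks were left out was not tested.

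**Figure D5:**
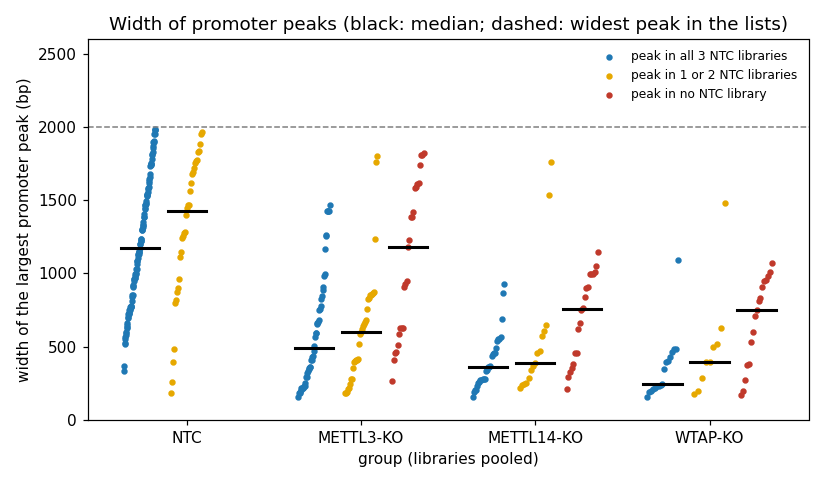
Width in bp of the largest promoter peak of each splicing gene (y axis), with 1 point per gene and library, by group (x axis) and by pattern in NTC (colour), with black lines at the medians and a dashed line at 2000 bp, the widest peak in the lists. Genes without an NTC peak have wide KO peaks, with a median of 1182 bp in METTL3-KO against 488.5 bp at genes marked in all 3 NTC libraries.

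The last comparison set METTL3-KO against the average of the other KO groups, METTL14-KO and WTAP-KO. Of the 69 splicing genes 20 were higher in METTL3-KO (29.0%), as were 29.5% of all genes tested, a share near that of the background. Among the lowest adjusted p (limma) were those of SF3A1 (0.00014), SNRPD1 (0.00024) and SRSF2 (0.00045), all marked in both METTL3-KO libraries and listed at 0 in the 4 libraries of the other groups. Those 4 libraries share the pseudocount value and add no spread, so these p-values rest on the spread within NTC and METTL3-KO. Among genes marked in every KO library U2AF1L4 was higher in METTL3-KO at 1.40 (SE 0.22, adjusted p 0.0041), SNRPC at 1.37 (SE 0.37, adjusted p 0.035), HNRNPUL1 at 1.80 (SE 0.41, adjusted p 0.019), SRSF11 at 1.80 (SE 0.32, adjusted p 0.0073), SF3B6 at 1.57 (SE 0.35, adjusted p 0.017) and PRPF6 at 1.54 (SE 0.36, adjusted p 0.022). At all 6 both METTL3-KO values lay above the 4 others, but these genes were picked as called. The same held at SNRPG, PRPF31, PRPF40B, PRPF38A and HNRNPLL, which were not called, and not at SNRPA, SRSF8 and U2AF1. The share of all genes with such values was not computed. SNRPG at 1.69 (SE 0.59, adjusted p 0.082) and PRPF31 at 0.96 (SE 0.46, adjusted p 0.19) did not pass. The count was 11 of 69 with values divided by the step, where 16.7% of all genes were higher.

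The rest of the splicing machinery was taken from a written list of 82 other spliceosome and splicing regulator genes, such as SNRNP70, EFTUD2, DDX46, PTBP1 and SRRM2. All 82 were tested. For all KO groups 58 were lower (70.7%, beside 73.0% of all genes) and 13 higher (15.9%, beside 14.3%), with a median log2 change of -4.61. Counts lower and higher were 50 and 12 in METTL3-KO (61.0% and 14.6%, beside 60.9% and 14.0% of all genes). In METTL14-KO they were 56 and 12 (68.3% and 14.6%, beside 68.8% and 8.38%). In WTAP-KO they were 57 and 11 (69.5% and 13.4%, beside 69.7% and 6.81%). A peak in all 3 NTC libraries was found at 59, in part of them at 10 and only in KO libraries at 13, among them CDC5L, LSM4, RBM39, SLU7 and SNRNP40. Of the 59 a peak was kept by 46 in METTL3-KO (77.97%, beside 53.7% of all genes with 3 NTC peaks), 22 in METTL14-KO (37.3% beside 26.7%) and 15 in WTAP-KO (25.4% beside 15.1%).

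The position of peaks was measured from the start of the canonical transcript. Over the splicing genes the centre of the largest peak had a median offset of -12.5 bp in NTC (131 peaks within 2 kb), -56.8 bp in METTL3-KO, -129.0 bp in METTL14-KO and 82.0 bp in WTAP-KO. Over other genes it was 116 bp, 52.5 bp, -77.5 bp and 23.0 bp. METTL14-KO peaks lay upstream of the start more often than those of any other group in both sets, with 31.0% of the splicing gene peaks and 38.1% of other peaks centred downstream.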

How the data were processed

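H3K4me3 CUT&RUN libraries from HEL cells were grouped by the sample labels. The authors aligned paired reads with Bowtie to hg19 and to the yeast spike-in genome sacCer3, calibrated by the spike-in, removed duplicates with Picard and called peaks per library. Tool versions are not given in the sources used here. The deposited lists hold 1 signal per peak, a calibrated coverage value and not a count, beside its chromosome and ends, so no count test was used. Peak starts were assumed to count from 0. Coordinates are hg19 and all 25 chromosome names of the lists were found in the reference.

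Starts came from GENCODE 44 lifted to hg19. Largest signals within 1 kb of any start were fitted with limma 3.58.1 (R 4.3.3; lmFit, contrasts and eBayes with trend, all 9 libraries in 4 groups) on log2(signal + 30.1) over genes marked in at least 2 libraries, with Benjamini-Hochberg adjustment over all 12037 at 0.05. Changes of weak promoters are understated by this scale. The limma fit was tested on simulated data with normal noise and no missing peaks, so that test does not cover missing peaks. Precision is limited by the number of libraries, and depth is unknown. Nothing says that replicates were separate cultures, so p-values measure the spread between these libraries, which may be technical. Where a group had no peak its libraries share the pseudocount value and add no spread, which lowers the p-values of such genes. SF3A1, SNRPD1 and SRSF2 are examples in METTL14-KO and WTAP-KO. No sequencing batch is given. Libraries sharing a replicate number had deviations from the group mean that correlated between -0.0982 and 0.0808 over genes marked in all 9 libraries, so the replicate numbers were not taken as pairs.

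The genes, lists and tests were chosen with earlier results of these data known. Members were named by a rule: a written list of 19 genes, those marked in all 9 libraries, the 5 with the highest NTC mean marked in all NTC and no KO libraries, those with KO peaks only, and the 5 lowest adjusted p for METTL3-KO against the other KO groups. Other members are named for their place in a family and were chosen after their values were seen. Of the genes so named 1, with 1 marker gene and 1 promoter sequence, is not reported here, and promoters were printed only where every peak was centred within 1 kb of the canonical start. Deciles were taken over the 8495 genes marked in all 3 NTC libraries. Alternatives were the pseudocount (0.1 and 10 times), the filter (1 or 3 libraries), centring on genes marked in all 9 libraries, division by the step, the sum of peaks, a 3 kb window, a start inside a peak, the start of the gene record alone, dropping peaks weaker than the NTC median, fitting only the groups compared, the replicate block and leaving out each library. Keeping only genes marked in all 3 NTC libraries, leaving missing peaks out of the fit and counting a KO peak as kept only on an NTC peak were chosen after seeing the data. Python 3.11.15, pandas 2.3.3, numpy 2.4.6, samtools 1.23.1 and matplotlib 3.10.9 were used.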

Additional observations from a re-analysis of the deposited data

Results flagged for a closer look

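Between the KO groups 20 of 69 splicing genes were higher in METTL3-KO than in METTL14-KO and WTAP-KO on average (limma, adjusted p under 0.05), a difference tested directly between groups. Over all genes tested the share was 29.5%, and among the 20 were SF3A1, SNRPD1 and SRSF2.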

How the results depend on the processing

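Of the counts, shares and medians 266 values stayed close to the main value, while 26 counts and 15 shares or medians did not. Close meant within a fixed ratio for counts, and within the SD between the libraries of the group for shares and medians. For named genes direction and side of the threshold were kept in 769 values, with 48 calls lost, 18 gained and 28 turned. With missing peaks left out of the fit 15 splicing genes could be tested. Of these 13 were lower for all KO groups (86.7%, beside 89.8% of all genes tested) and 10 in METTL3-KO (66.7% beside 78.1%). In METTL14-KO 11 were lower (73.3% beside 88.3%) and in WTAP-KO 13 (86.7% beside 91.9%). Higher in METTL3-KO than in the other KO groups were 10 (66.7% beside 82.4%). Against NTC 0 were higher in any comparison (limma, with 1 in METTL3-KO and 0 elsewhere at an unadjusted p under 0.05). Over all genes the higher share was 1.75% to 4.74%. Genes marked in all 3 NTC libraries alone also gave 0 higher calls in each comparison with NTC, beside 0.15% to 0.42% of all genes. At an unadjusted p under 0.05 there were 0 as well (limma), since that filter removes the genes without NTC peaks. Centring left 15 lower genes in METTL3-KO (21.7% beside 48.5%) and 21 in METTL14-KO (30.4% beside 56.2%). Division by the step left 17 (24.6% beside 48.7%) and 21 (30.4% beside 60.7%), with 11 higher in METTL3-KO than in the other KO groups (15.9% beside 16.7%). Higher calls for all KO groups were 14 of 69 in the main fit (20.3% beside 14.3% of all genes). They fell to 9 of 61 with the start inside a peak (14.8% beside 13.9%) and 9 of 69 with the replicate block (13.04% beside 11.6%). With peaks weaker than the NTC median dropped (the peak threshold) they were 9 of 53 (16.98% beside 9.89%). With the start inside a peak WTAP-KO had 4 higher calls (6.56% beside 4.83%). With the peak threshold higher calls were 7 in METTL3-KO (13.2% beside 9.91%) and 4 in WTAP-KO (7.55% beside 2.43%). For METTL3-KO against the other KO groups that setting gave 8 (15.1% beside 9.68%). The share kept per library (METTL3-KO first, then METTL14-KO, then WTAP-KO) was 48.3%, 30% and 15% with the start inside a peak, 61.7%, 33.3% and 20% with the gene record start and 32.8%, 10.3% and 1.72% with the peak threshold, and with KO peaks on NTC peaks alone 63.5% in METTL3-KO and 20.3% in WTAP-KO. The median METTL3-KO signal in percent of NTC was 5.93 with the start inside a peak, 0 with the peak threshold, 42.3 centred and 23.2 divided by the step. Other than for KO peaks on NTC peaks, these shares and medians were computed for the splicing genes alone. Each was taken over the splicing genes with a peak in all NTC libraries in that setting, so the genes can differ between settings.

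Log2 changes for all KO groups that turned direction were SF3B1 (-0.35 with 10 times the pseudocount, -0.092 with the sum of peaks, -1.75 with the peak threshold, -1.29 with the replicate block), SRSF1 (-0.24 with 10 times the pseudocount, -1.98 with the start inside a peak, -0.76 with the replicate block, -3.34 without missing peaks), SNRPD3 (0.19 with 0.1 times the pseudocount, 0.35 centred, 0.20 divided by the step), U2AF1 (-0.33 without missing peaks), PRPF6 (-0.63 with the 3 kb window) and HNRNPUL1 (4.30 with the gene record start). Centring also turned PRPF31 (0.55), HNRNPUL1 (1.29), PRPF40B (0.83), SNRPC (0.39) and U2AF1L4 (0.36). All of these are among the genes that set the centring. Over single libraries left out, SF3B1 ran from -1.29 to 2.90, SRSF1 from -0.76 to 3.47 and SNRPD3 from -1.62 to 2.23. Lower calls for all KO groups ran from 35 to 40 and higher calls from 9 to 13, lower calls from 24 to 30 in METTL3-KO, 31 to 37 in METTL14-KO and 34 to 41 in WTAP-KO, and METTL3-KO against the other KO groups from 15 to 26. Where a group was left with 1 library, that library was assumed to vary like the others. The replicate numbers were not taken as pairs. The cause of these changes was not tested.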
